A study of Mus musculus with 18 samples.

Results

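Mitochondrial ribosomal proteins were described here as the rows whose symbol starts with Mrpl or Mrps followed by a number. The rule found 78 of the 16873 listed genes, of which 49 were named for the large subunit (Mrpl) and 29 for the small subunit (Mrps). Liver hepatocytes came from mice labelled Mtdh KO and from age-matched WT mice, with the condition given as normal and without a tumor. Mtdh encodes metadherin, a membrane-associated protein with reported roles in cancer and inflammation. Cells of each genotype received TNFa or TGFb, or else medium (CM) that had been conditioned by Kupffer cells given Py8119-EVPs, which made 6 groups of 3 libraries each. No untreated group entered the comparisons, so each treatment was compared with the other treatments. The sources used here give no age, sex, dose, treatment time or removed part of Mtdh. The libraries are called biological replicates, but the labels do not tie them to separate mice, so p-values measure the spread between these libraries.

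The mitochondrial ribosome translates the few messenger RNAs transcribed from mitochondrial DNA, all of which code for inner-membrane subunits of oxidative phosphorylation. Its RNAs come from the mitochondrial genome, while its proteins are encoded in the nucleus, made in the cytosol and imported. The small subunit binds and decodes the messenger RNA, and the large subunit carries the peptidyl transferase center and the exit tunnel. Part of the proteins have bacterial relatives and the rest are specific to mitochondria. Hepatocytes are rich in mitochondria. Symbol and place differ for a few members. Mrps18a and Mrps30 sit in the large subunit, Mrps36 is a subunit of the 2-oxoglutarate dehydrogenase complex, and Mrpl58 is a peptidyl-tRNA hydrolase built into the large subunit.

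Depth, estimated from the deposited values, lay between 19.4 and 35.6 M reads per library (median 23.4 M). Mtdh, at 34082840 to 34145770 on chromosome 15 (mm39), stood at 10063 to 13725 normalized units in WT libraries and at 581 to 973 in KO libraries. All 10 hepatocyte markers were present in every group. In KO against WT, 2 of them were called higher and 2 lower with TNFa, 3 higher with TGFb and 3 higher with CM. Of all genes, 7.89%, 12.2% and 9.39% were called in these comparisons. Markers of Kupffer cells and macrophages were higher in KO, with 7, 10 and 8 of 15 passing the test under TNFa, TGFb and CM. Their summed level was 3476 to 4248 in WT against 6569 to 7470 in KO with TNFa, 2811 to 3335 against 5009 to 6020 with TGFb, and 2510 to 3107 against 5043 to 5249 with CM. Timd4 was at 0 in all WT libraries with TGFb and was the only macrophage marker at 0 throughout a group. Of 10 sinusoidal endothelial markers, 4, 2 and 1 passed the test, all higher in KO. Of 6 cholangiocyte markers, 2 were lower in KO with TNFa and none passed with TGFb or CM. The part of these cells in the results was not tested. In bulk RNA, fewer cells of a type and less RNA per cell cannot be told apart.

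Promoter sequences from RefSeq (GRCm38.p6, from 250 bases before to 50 after the start) were at hand for 69 of the 78 members, in 75 windows. Mrpl13, Mrpl15, Mrpl19, Mrpl38, Mrpl4, Mrpl54, Mrps28, Mrps34 and Mrps35 had no entry. The windows are shown for the members whose values the comparisons below turn on, for the one with the most matches to the NRF1 motif, and for a pair of members that share a promoter. Capitals mark matches to 3 motifs known from promoters of mitochondrial genes, searched on both strands: NRF1 (GCGC, any base, then TGCGC, or on the other strand GCGCA, any base, then GCGC), ETS factors such as GABPA (CCGGAAG or CTTCCGG) and YY1 (AANATGGCG or CGCCATNTT).
Mrpl10, stalk protein of the large subunit, chr11:97041332-97041631, plus strand: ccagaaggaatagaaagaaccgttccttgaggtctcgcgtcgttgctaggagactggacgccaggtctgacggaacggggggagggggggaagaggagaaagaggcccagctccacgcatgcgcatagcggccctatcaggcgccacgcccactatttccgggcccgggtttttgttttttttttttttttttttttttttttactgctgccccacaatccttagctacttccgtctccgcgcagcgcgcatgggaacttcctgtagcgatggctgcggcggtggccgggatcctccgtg
Mrps23, small subunit, chr11:88204138-88204437, plus strand: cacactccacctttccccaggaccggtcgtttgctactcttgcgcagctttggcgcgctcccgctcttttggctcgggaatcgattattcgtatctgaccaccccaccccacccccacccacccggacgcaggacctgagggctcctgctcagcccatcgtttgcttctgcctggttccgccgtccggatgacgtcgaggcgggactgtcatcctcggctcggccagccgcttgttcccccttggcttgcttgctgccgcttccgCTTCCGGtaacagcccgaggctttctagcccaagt
Mrpl37, large subunit, chr4:107066817-107067116, minus strand: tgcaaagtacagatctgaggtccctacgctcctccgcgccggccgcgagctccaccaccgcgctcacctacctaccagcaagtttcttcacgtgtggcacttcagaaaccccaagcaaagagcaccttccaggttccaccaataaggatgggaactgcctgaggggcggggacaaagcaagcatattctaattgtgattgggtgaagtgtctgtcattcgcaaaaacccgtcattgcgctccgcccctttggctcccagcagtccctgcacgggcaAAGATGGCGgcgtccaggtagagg
Mrps17, small subunit, chr5:129715247-129715546, plus strand: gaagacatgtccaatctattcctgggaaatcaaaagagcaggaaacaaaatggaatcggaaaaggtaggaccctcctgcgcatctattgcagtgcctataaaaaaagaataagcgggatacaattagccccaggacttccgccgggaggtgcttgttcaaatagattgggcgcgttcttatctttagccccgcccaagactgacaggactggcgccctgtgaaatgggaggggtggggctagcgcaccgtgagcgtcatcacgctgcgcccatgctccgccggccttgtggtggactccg
Mrpl33, large subunit, chr5:31613701-31614000, plus strand: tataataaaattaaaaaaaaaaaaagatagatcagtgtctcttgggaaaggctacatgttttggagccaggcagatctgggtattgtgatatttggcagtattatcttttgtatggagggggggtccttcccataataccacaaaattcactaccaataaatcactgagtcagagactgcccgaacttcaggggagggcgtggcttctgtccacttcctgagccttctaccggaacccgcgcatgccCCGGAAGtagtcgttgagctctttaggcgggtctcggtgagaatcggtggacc
Mrpl45, large subunit, chr11:97315466-97315765, plus strand: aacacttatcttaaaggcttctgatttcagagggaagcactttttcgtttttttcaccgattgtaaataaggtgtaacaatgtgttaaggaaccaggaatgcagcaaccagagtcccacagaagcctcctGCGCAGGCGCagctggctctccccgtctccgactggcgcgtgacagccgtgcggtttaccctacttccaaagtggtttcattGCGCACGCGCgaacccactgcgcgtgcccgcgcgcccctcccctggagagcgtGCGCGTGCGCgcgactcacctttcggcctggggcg
Stretch of 141 bases in the windows of both Mrps11 and Mrpl46, chr7:78783040-78783180, plus strand: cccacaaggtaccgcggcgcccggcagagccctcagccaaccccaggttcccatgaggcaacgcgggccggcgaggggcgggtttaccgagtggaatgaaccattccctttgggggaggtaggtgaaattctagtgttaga

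The Mrps23 and Mrpl33 windows each held 1 ETS match, the Mrpl37 window held 1 YY1 match and the Mrpl45 window held 3 NRF1 matches. The Mrpl10 and Mrps17 windows and the stretch shared by Mrps11 and Mrpl46 held none of the 3 motifs. The full window of Mrps11 held 1 YY1 match, and that of Mrpl46 held no match. Over all member windows, 13 of 75 (17.3%) held an NRF1 match, 26 (34.7%) an ETS match and 11 (14.7%) a YY1 match. The shares among 16102 windows of all listed genes were 8.09%, 14.3% and 4.02%, and those among all 32851 windows were 4.6%, 8.86% and 2.38%. At least 1 of the 3 motifs was present in 42 member windows (56.0%), against 23.5% of the windows of listed genes. The share was 56.2% for large and 55.6% for small subunit windows, with different motifs. NRF1 matches were in 20.8% of large and 11.1% of small subunit windows, ETS matches in 31.2% and 40.7%, and YY1 matches in 12.5% and 18.5%. These shares of 48 and 27 windows were not tested. A match describes letters in these windows and says nothing of binding.

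Many members also faced another gene. Of the 78, 32 (41.0%) had a gene start on the opposite strand within 1000 bases of their own start, against 2161 of the 16873 listed genes (12.8%). Mrpl46 and Mrps11, a large and a small subunit gene, started 412 bases apart. Some of the other partners are also mitochondrial genes. Mrps12 faced Sars2, the mitochondrial seryl-tRNA synthetase, at 172 bases. Mrpl43 faced Twnk, the mitochondrial DNA helicase, at 779 bases. Mrpl36 faced Ndufs6 at 29 bases and Mrpl47 faced Ndufb5 at 615 bases, both complex I subunits. In addition, 24 members overlapped another listed gene, 22 of them on the opposite strand. The strand setting of the counting is not given in the sources used here, so for these members reads of overlapping genes cannot be told apart.

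Levels were compared between genes as the mean normalized value of 18 libraries per kilobase of transcript. The length was that of the longest transcript tagged as principal, or of the longest coding one where none was tagged. All 78 members were expressed, and 75 had a mean value of at least 50. Per kilobase they ranged from 33.0 for Mrpl34 to 1326 for Mrpl33, a 40.2-fold range, with a median of 156. Mrpl33 was the highest, followed by Mrps23 at 841 and Mrps18a at 690. Mrpl34 was the lowest, preceded by Mrps26 at 52.3 and Mrps11 at 57.4. The place of Mrps26 rests on its transcript length of 4278 bases, since its mean value was 224 normalized units. That of Mrpl33 rests on a length of 478 bases. Its mean value was 634 normalized units, below that of other members such as Mrpl50 at 1408. Single libraries of Mrpl34 ran from 0 (TNFa WT library 2) to 47.2 normalized units. Mrpl33 overlaps Rbks and Mrps18a overlaps Rsph9, each on the opposite strand.

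**Figure D1:**
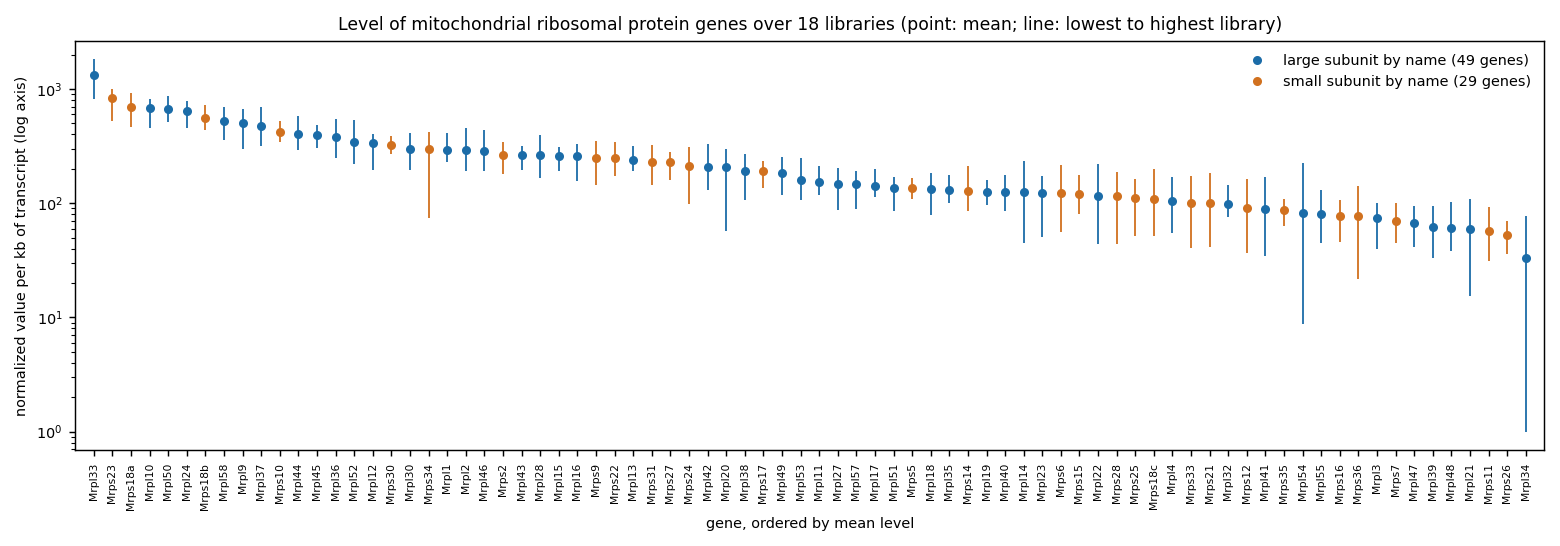
Level of each member per kilobase of transcript on a log axis, ordered by mean; points are means of 18 libraries, lines run from the lowest to the highest library, blue is large and orange small subunit by name. Large subunit genes run from Mrpl33 at 1326 to Mrpl34 at 33.0, and small subunit genes from Mrps23 at 841 to Mrps26 at 52.3. The lower line of Mrpl34 is drawn to 1 because its lowest library is 0.

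Large subunit genes held both ends of the range of levels (33.0 to 1326 per kilobase), and small subunit genes ran from 52.3 to 841. The median per kilobase was 182 for the large and 129 for the small subunit genes. Before division by length the medians were nearly equal, at 299 and 296 normalized units. Members counted as having bacterial relatives had a median of 134 (46 genes) and those counted as specific to mitochondria 228 (31 genes). This grouping put Mrps18c with the former but its paralogs Mrps18a and Mrps18b, and Mrpl58, with the latter, so the medians depend on it. Within a gene, the highest of the 18 libraries exceeded the lowest by a median of 2.22-fold. Among the Mrps18 paralogs, Mrps18a (690 per kilobase) and Mrps18b (555) stood near the top of the order, while Mrps18c (109) was lower. The stalk proteins Mrpl10 and Mrpl12, which carry the binding site for elongation factors, stood at 675 and 334. Mrpl58 was at 520, Mrps30 at 323 and Mrps36, the dehydrogenase subunit, at 76.9.

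As a share of all summed values the members took 0.115% to 0.156% of a library. The summed value of large subunit genes was 1.83 to 2.14 times that of small subunit genes, with a median of 1.93. Group means of this ratio were 1.98 ± 0.08 (SD, n = 3) in TNFa WT, 1.91 ± 0.04 in TNFa KO, 1.89 ± 0.09 in TGFb WT, 1.95 ± 0.02 in TGFb KO, 1.99 ± 0.13 in CM WT and 1.93 ± 0.06 in CM KO. The 3 WT groups overlapped with their KO groups in this ratio.

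**Figure D2:**
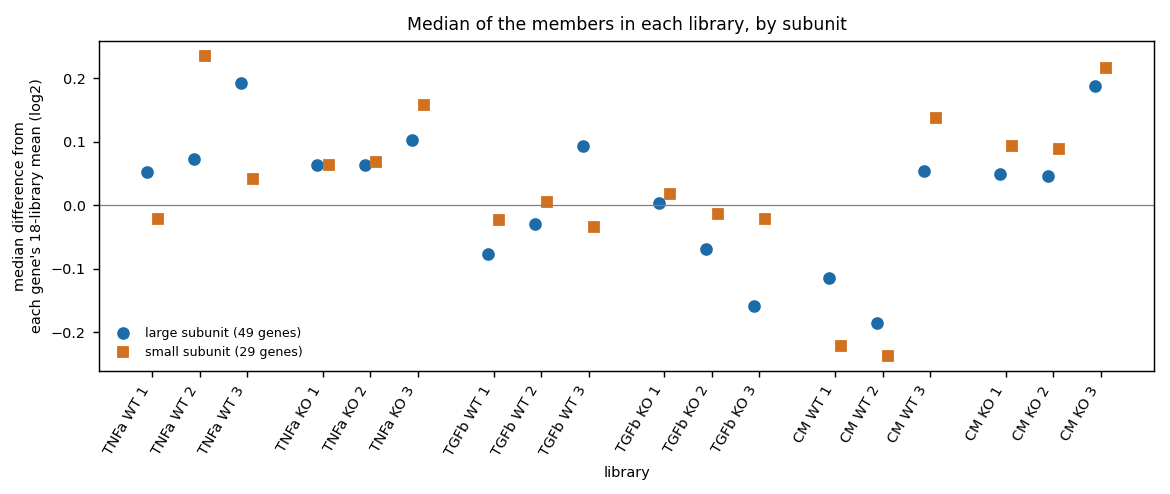
Median over large (blue circles, 49 genes) and small (orange squares, 29 genes) subunit genes of the difference of each library from the gene's mean over 18 libraries, on the log2 scale. CM WT libraries 1 and 2 are the lowest for the small subunit, at -0.22 and -0.24, while CM WT library 3 is at 0.14, among the 3 CM KO libraries at 0.09 to 0.22.

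Between libraries the gap between the subunits varied almost as much as the median over all members, which lay between -0.22 and 0.19. The median of the large subunit genes minus that of the small subunit genes, each as the difference from a gene's own mean, lay between -0.16 and 0.15 on the log2 scale over the 18 libraries. CM WT libraries 1 and 2 were low for both subunits. Over all members their medians were -0.20 and -0.22, whereas CM WT library 3 was at 0.07 and the CM KO libraries were at 0.06 to 0.19. CM WT library 3 thus overlapped with the CM KO libraries.

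The knockout was compared with WT within each treatment. With no untreated group in these comparisons, a difference present before treatment and one in the response to it cannot be told apart. Values were fitted as log2(value + 1) with limma over 14455 genes, and a gene was called at a Benjamini-Hochberg adjusted p below 0.05. With TNFa, Mrpl37 fell and the other 77 members did not pass. In the whole table, 7.89% of genes were called in this comparison, 4.19% higher and 3.7% lower. The median log2 fold change (KO against WT) was -0.01 over members and 0.02 over all genes. It was -0.03 for large and 0.03 for small subunit genes. Over members it ran from -0.05 (without TNFa WT library 1) to 0.02 (without TNFa KO library 1) when single libraries were left out.

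Mrpl37 encodes a mitochondria-specific protein of the large subunit. It stood at 690, 944 and 1046 normalized units in TNFa WT and at 694, 555 and 570 in TNFa KO. The groups overlapped, since WT library 1 lay below KO library 1. The log2 fold change was -0.54 ± 0.16 (SE, limma adjusted p = 0.027). The call was lost without WT library 2 (-0.49, adjusted p = 0.10), WT library 3 (-0.42, adjusted p = 0.18), KO library 2 (-0.48, adjusted p = 0.11) or KO library 3 (-0.50, adjusted p = 0.089).

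With TGFb no member was called by limma, while 12.2% of all genes were (7.25% higher, 4.95% lower), and 5 of the 78 members had an unadjusted p below 0.05. The median log2 fold change was -0.05 over members, -0.08 for large and -0.04 for small subunit genes. It was -0.01 over all genes. Over members it was -0.07 without TGFb WT library 3 and -0.0075 without TGFb KO library 3. The members' share of summed values was 0.125% to 0.128% in TGFb WT and 0.115% to 0.120% in TGFb KO, which did not overlap. With all libraries scaled to equal totals, the median over all genes became -0.12 and that over members -0.15, and calls over all genes turned from 1048 higher and 716 lower to 830 higher and 1494 lower. Leaving out any one of the 3 TGFb KO libraries gave 1 call, higher without library 1 and lower without library 2 or 3.

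With CM, Mrps34, Mrps23 and Mrpl10 rose in KO and no member fell. Of all genes, 9.39% were called, 5.62% higher and 3.77% lower. The median log2 fold change was 0.23 over members, with 59 of 78 above 0 and 14 at an unadjusted p below 0.05, against -0.01 over all genes. It was 0.21 for large and 0.31 for small subunit genes. Values of the groups did not overlap for 15 members (19.2%), 14 of them higher in KO, against 25.7% of all genes. The median over members lay between 0.18 and 0.30 when single libraries were left out.

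Mrps34, a mitochondria-specific protein of the small subunit, stood at 67.5, 177 and 211 in CM WT and at 299, 385 and 255 in CM KO. The groups did not overlap, and CM WT library 1 was the lowest of all 18 libraries. The log2 fold change was 1.17 ± 0.29 (SE, limma adjusted p = 0.0082). Without CM WT library 1 it was 0.67 (adjusted p = 0.11), and without CM KO library 2 it was 1.01 (adjusted p = 0.061). In the other 12 libraries Mrps34 lay between 227 and 365. It overlaps Nme3 on the same strand and Mapk8ip3 on the opposite strand.

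Mrps23, another mitochondria-specific small subunit protein, stood at 735, 697 and 950 in CM WT and at 1017, 1040 and 1128 in CM KO. All 3 KO libraries lay above all 3 WT libraries. The log2 fold change was 0.43 ± 0.12 (SE, limma adjusted p = 0.020). Mrpl10, which anchors the stalk of the large subunit, stood at 873, 779 and 1005 in CM WT and at 1158, 1234 and 1156 in CM KO. These groups were also separate, with a log2 fold change of 0.42 ± 0.12 (SE, limma adjusted p = 0.020). Mrps23 lost its call without CM WT library 1 or 2 or CM KO library 2 or 3, and Mrpl10 without CM WT library 1 or 2 or CM KO library 1 or 2, at adjusted p-values up to 0.13. Both were also lost with equal totals (0.35 and 0.35, adjusted p = 0.066 and 0.063) and with a fit of only the 2 groups compared. The number of members called was 0 without CM WT library 1 or without CM KO library 2, 1 without CM WT library 2, and 6 without CM WT library 3. With equal totals the calls over all genes turned from 813 higher and 545 lower to 627 higher and 874 lower.

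Members named for their place or paralogs did not pass in the CM comparison. Mrpl12, the stalk partner of Mrpl10, differed by 0.53 ± 0.19 (SE, limma adjusted p = 0.075). Mrps18a, of the large subunit, differed by 0.51 ± 0.18 (adjusted p = 0.073), while its paralogs Mrps18b and Mrps18c differed by -0.12 ± 0.18 and 0.67 ± 0.49. The large subunit protein Mrps30 differed by 0.13 ± 0.13, the hydrolase Mrpl58 by -0.29 ± 0.17 and the dehydrogenase subunit Mrps36 by 0.25 ± 0.55. Mrps30 had the narrowest interval of these genes (-0.13 to 0.39), and that of Mrps36 ran from -0.87 to 1.37.

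**Figure D3:**
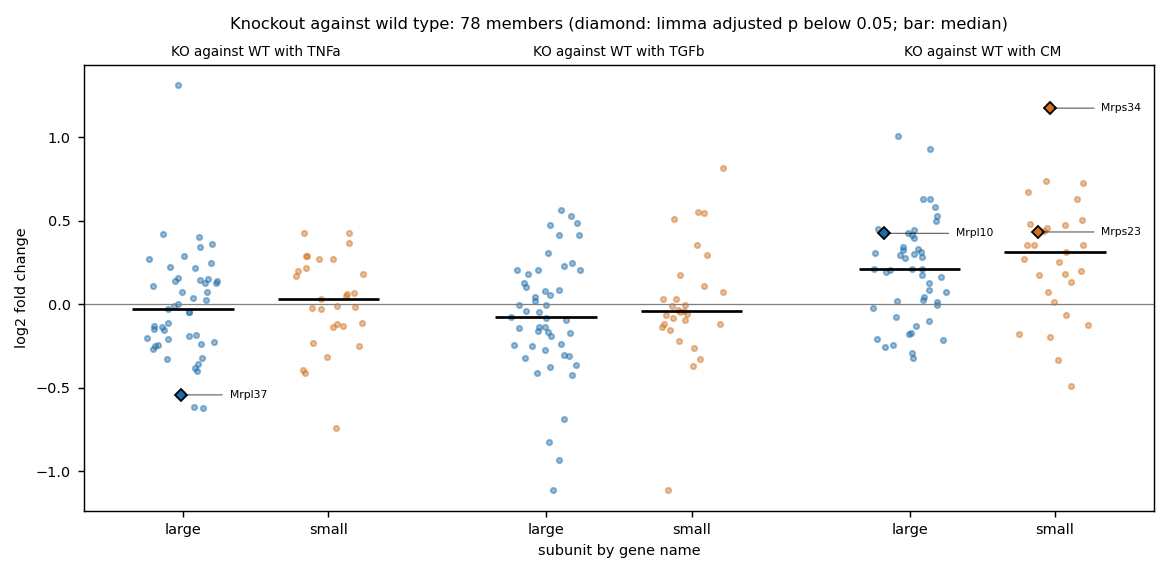
Log2 fold change of KO against WT for each of 78 members under TNFa, TGFb and CM, split by subunit; circles are members, diamonds are those with a limma adjusted p below 0.05 and black bars are medians. Medians lie near 0 with TNFa and TGFb, and at 0.21 (large) and 0.31 (small) with CM, where Mrps34, Mrps23 and Mrpl10 were called.

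Large and small subunit genes were close in each knockout comparison. The large subunit median minus the small subunit median was -0.06 with TNFa, -0.04 with TGFb and -0.10 with CM. With Mrps18a and Mrps30 moved to the large subunit and Mrps36 left out, these values were -0.08, -0.03 and -0.12. With CM the difference ran from -0.11 to 0.02 when single libraries were left out, and it was positive without CM KO library 2 (0.01) or library 3 (0.02). These are descriptions over genes, which are not replicates, and carry no test.

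Whether the knockout effect differed between treatments was tested as an interaction. No member was called by the limma F-test, 10 had an unadjusted p below 0.05, and 1.7% of all genes were called. The smallest adjusted p belonged to Mrpl37 (0.097), whose log2 fold change was -0.54 with TNFa. Without TNFa WT library 1, 1 member was called. The pairwise tests called no member either. The smallest adjusted p over members was 0.24 for TGFb against TNFa (1.1% of all genes called, 8 members at an unadjusted p below 0.05), 0.22 for CM against TGFb (0.491%, 7 members) and 0.074 for CM against TNFa (0.63%, 12 members). No member was thus shown to respond to the knockout differently under one treatment than under another. Over the 3 knockout comparisons, 12 members were above 0 in all and 10 were below 0 in all, and none was called in more than 1.

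Treatments were then compared within WT. The comparisons share groups, so that CM WT enters both of the next ones. CM against TNFa gave 8 members lower and 1 higher in WT, with 12.3% of all genes called (6.81% higher, 5.46% lower). The median log2 fold change was -0.18 over members and 0.04 over all genes, and over members it was -0.084 without CM WT library 2. CM against TGFb gave 8 lower and 2 higher in WT, with 11.8% of all genes called (5.76% higher, 6.09% lower), and medians of -0.07 over members and 0.02 over all genes. Over members this median ran from -0.13 without CM WT library 3 to 0.0046 without CM WT library 1, and it was -0.03 without TGFb WT library 2 and -0.02 without CM WT library 2. TGFb against TNFa gave 1 lower member in WT, with 13.4% of all genes called (8.06% higher, 5.33% lower) and medians of -0.14 and 0.00. Scaled to equal totals, the calls over all genes turned from 985 higher and 789 lower to 858 and 1062 for CM against TNFa, from 832 and 880 to 1102 and 626 for CM against TGFb, and from 1165 and 771 to 873 and 1370 for TGFb against TNFa.

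Markers of other cells and of hepatocytes moved in these comparisons as well. Of the 10 hepatocyte markers, 6 were higher in CM than in TNFa and 6 in TGFb than in TNFa, while 2 were higher and 3 lower in CM than in TGFb. Of the 15 Kupffer cell and macrophage markers, 3 were lower in CM than in TNFa, 5 lower and 1 higher in TGFb than in TNFa, and 3 higher and 1 lower in CM than in TGFb. In KO, 9 hepatocyte markers were higher in TGFb and 10 in CM than in TNFa, and 1 was lower in CM than in TGFb. Macrophage markers in KO were lower for 4 in TGFb and 1 in CM than in TNFa, and higher for 2 in CM than in TGFb. These were 26.7%, 6.67% and 13.3% of the 15, beside 22.4%, 12.7% and 10.6% of all genes called in these KO comparisons. The hepatocyte markers took 8.80% to 9.13% in TNFa WT, 10.8% to 11.5% in TGFb WT, 10.1% to 10.4% in CM WT, 8.25% to 8.89% in TNFa KO, 13.3% to 13.9% in TGFb KO and 12.02% to 12.3% in CM KO of the summed values. The part of these shifts in the members' values was not tested.

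Mrps23 and Mrps17 fell in CM WT against both other treatments. Mrps23 stood at 1198, 1306 and 1093 in TNFa WT and at 1162, 1142 and 1338 in TGFb WT, and every one of these lay above its CM WT values of 735, 697 and 950. Its log2 fold change was -0.60 ± 0.12 against TNFa (SE, limma adjusted p = 0.00080) and -0.62 ± 0.12 against TGFb (adjusted p = 0.00062). Mrps17, a small subunit protein with a bacterial relative, stood at 1045, 1144 and 1028 in TNFa WT, at 1155, 1081 and 933 in TGFb WT and at 691, 776 and 703 in CM WT. The CM libraries were below all others, with -0.57 ± 0.12 against TNFa (adjusted p = 0.0016) and -0.54 ± 0.12 against TGFb (adjusted p = 0.0026). These 4 calls held under all 15 alternatives tried, each left-out library included.

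Mrpl10 and Mrpl37 of the large subunit fell in CM WT against TNFa under all alternatives as well. Mrpl10 stood at 1166, 1391 and 1305 with TNFa against 873, 779 and 1005 with CM, a log2 fold change of -0.54 ± 0.12 (SE, limma adjusted p = 0.0020). Mrpl37 stood at 690, 944 and 1046 with TNFa against 569, 477 and 632 with CM, a log2 fold change of -0.66 ± 0.16 (adjusted p = 0.0038). Neither gene's groups overlapped. Against TGFb, where Mrpl37 stood at 766, 891 and 668, the difference was -0.47 ± 0.16 (adjusted p = 0.047) and held in 6 of 15 alternatives.

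The remaining calls of CM against TNFa in WT each depended on single libraries. Mrpl44, a relative of ribonuclease III in the large subunit, fell by 0.64 on the log2 scale (limma adjusted p = 0.017) and lost its call without CM WT library 2. Mrpl24 fell by 0.49 (adjusted p = 0.021) and lost its call without TNFa WT library 2 or 3 or CM WT library 1 or 2. Mrps34 fell by 0.90 (adjusted p = 0.040), with a fold change of -0.40 (adjusted p = 0.39) without CM WT library 1, and its call was also lost without any single TNFa WT library. Mrpl50 fell by 0.34 (adjusted p = 0.042) and kept its call in 1 of 6 fits with a library left out, the one without CM WT library 3. Mrpl48 alone rose, from 164, 255 and 177 to 383, 438 and 244. Its groups overlapped, the difference was 0.82 ± 0.24 (adjusted p = 0.021), and the call was lost without TNFa WT library 1 or 3 or CM WT library 1 or 2. Mrpl44, Mrpl24 and Mrpl48 overlap Wdfy1, Rrnad1 and Rab6a on the opposite strand.

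In CM against TGFb in WT, Mrps34 fell by 1.20 on the log2 scale (limma adjusted p = 0.0055), and by 0.70 (adjusted p = 0.080) without CM WT library 1. Mrpl17 stood at 1451, 1108 and 1094 with TGFb and at 890, 832 and 843 with CM. It fell by 0.50 (adjusted p = 0.0077), and the call was lost without TGFb WT library 1, its highest. Mrpl9 fell by 0.58 (adjusted p = 0.020), Mrpl57 by 0.61 (adjusted p = 0.027) and Mrpl50 by 0.35 (adjusted p = 0.037). Mrpl9 lost its call without TGFb WT library 2 or 3 or CM WT library 1 or 2, Mrpl57 without TGFb WT library 1 or 3 or CM WT library 2, and Mrpl50 without any single library other than CM WT library 3. Mrpl51 rose by 0.56 (adjusted p = 0.045) and kept its call in 1 of 6 fits with a library left out. Mrpl9 overlaps Oaz3 on the opposite strand. The number of members called in CM against TGFb was 4 without CM WT library 1, 5 without CM WT library 2, TGFb WT library 1 or TGFb WT library 2, and 5 in a fit of only these groups. For CM against TNFa it was 5 without CM WT library 1, CM WT library 2 or TNFa WT library 3.

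Mrpl33 followed another pattern, with low values under TGFb in both genotypes. Mrpl33 encodes a small protein of the large subunit with a bacterial relative. It stood at 695, 835 and 735 in TNFa WT, at 587, 443 and 506 in TGFb WT and at 868, 693 and 698 in CM WT. In KO it stood at 655, 710 and 728 with TNFa, at 396, 479 and 390 with TGFb and at 606, 612 and 777 with CM. The TGFb libraries were below the other libraries of their genotype without overlap.

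The log2 fold change of Mrpl33 for TGFb against TNFa was -0.57 ± 0.15 in WT (SE, limma adjusted p = 0.0099) and -0.73 ± 0.15 in KO (adjusted p = 0.00051). For CM against TGFb it was 0.56 ± 0.15 in WT (adjusted p = 0.013) and 0.65 ± 0.15 in KO (adjusted p = 0.0042). Both KO calls held under all 15 alternatives. The WT call against TNFa was lost without TNFa WT library 2 (adjusted p = 0.064) or TGFb WT library 2 (adjusted p = 0.077). That of CM against TGFb in WT was lost without TGFb WT library 2 or CM WT library 1.

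**Figure D4:**
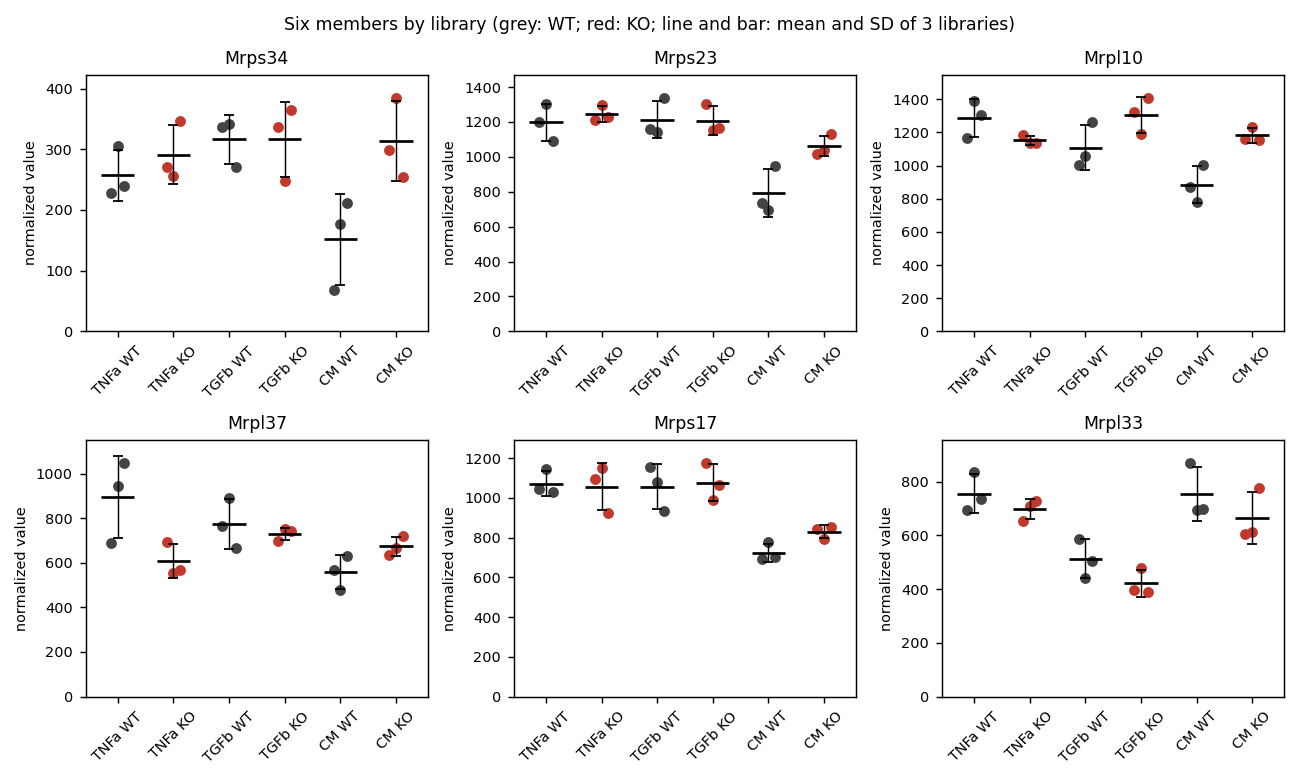
Normalized value by library of 6 members, with grey points for WT and red points for KO; lines and bars give the mean and SD of 3 libraries, and each axis starts at 0. CM WT is the lowest group for Mrps34, Mrps23, Mrpl10, Mrpl37 and Mrps17, while Mrpl33 is low in both TGFb groups.

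Within KO, TGFb against TNFa gave 4 lower members, with 22.4% of all genes called (12.3% higher, 10.1% lower) and medians of -0.11 over members and -0.04 over all genes. The median over members was -0.058 without TGFb KO library 2 and -0.060 without TGFb KO library 3. Besides Mrpl33, Mrpl22, a large subunit protein with a bacterial relative that lines the exit tunnel, fell from 124, 108 and 117 to 31.6, 56.2 and 33.5. Its groups did not overlap, the log2 fold change was -1.55 ± 0.45 (SE, limma adjusted p = 0.011), and the call held under all alternatives. Mrpl20 stood at 162, 158 and 229 with TNFa and at 43.6, 113 and 124 with TGFb. It fell by 1.08 (adjusted p = 0.017), and by 0.61 (adjusted p = 0.19) without TGFb KO library 1, its lowest. It also lost its call without TNFa KO library 3. Mrps25, which overlaps Nr2c2 on the opposite strand, fell by 0.57 (adjusted p = 0.045), and the fold change was -0.25 (adjusted p = 0.42) without TGFb KO library 3. The Mrps25 call was also lost without any single TNFa KO library and with the replicate number as a block (adjusted p = 0.055). Without TNFa KO library 3 the count of called members was 2. With equal totals, 15 members were lower, the median over members was -0.37 and that over all genes -0.29, and calls over all genes turned from 1779 higher and 1458 lower to 1119 higher and 3756 lower.

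CM against TGFb in KO gave 3 higher and 1 lower member, with 10.6% of all genes called (5.2% higher, 5.39% lower) and medians of 0.17 over members and 0.00 over all genes. The median over members was 0.098 without TGFb KO library 3. With equal totals the calls over all genes turned from 751 higher and 779 lower to 1243 higher and 492 lower. Mrpl33 rose as given above. Mrpl20 rose by 1.05 on the log2 scale (limma adjusted p = 0.038), and by 0.57 (adjusted p = 0.30) without TGFb KO library 1. Mrpl21, which overlaps Ighmbp2 on the opposite strand, rose from 17.6, 46.5 and 43.1 to 83.9, 85.2 and 102. Its difference was 1.42 ± 0.45 (adjusted p = 0.040). Mrps17 fell by 0.37 (adjusted p = 0.045), from 1175, 990 and 1064 to 843, 791 and 853. The calls of Mrpl20, Mrpl21 and Mrps17 were each lost without any single CM KO library and without TGFb KO library 1, and that of Mrps17 also without TGFb KO library 3 and with the replicate block. The count was 1, Mrpl33, without any one CM KO library or without TGFb KO library 1.

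CM against TNFa in KO gave no called member by limma, with 12.7% of all genes called (8.38% higher, 4.32% lower), 5 members at an unadjusted p below 0.05, and medians of 0.03 over members and -0.02 over all genes. The median over members ran from 0.0053 without TNFa KO library 2 to 0.05 without TNFa KO library 3. Without TNFa KO library 3, 2 members were lower. With equal totals 5 were lower, and the calls over all genes turned from 1211 higher and 624 lower to 878 higher and 1906 lower. CM against TNFa in WT, with 9 called members, is not shown to differ from it. The interaction of genotype with CM against TNFa called no member.

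**Figure D5:**
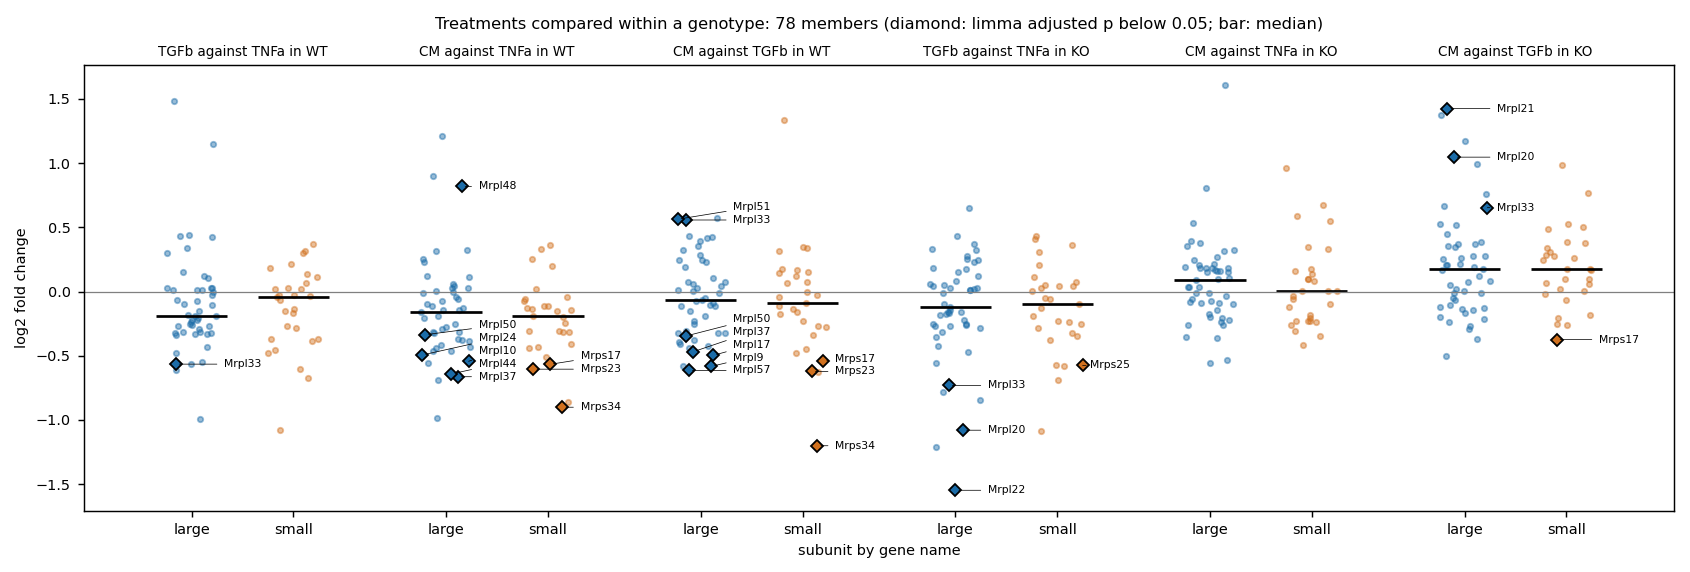
Log2 fold change between treatments for each of 78 members, in WT and in KO, split by subunit; circles are members, diamonds those with a limma adjusted p below 0.05, and black bars medians. Calls are mostly below 0 in CM WT against either other treatment, and Mrpl33 is called in 4 of the 6 comparisons.

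Over the 9 comparisons 18 members were called at least once, 14 of the large and 4 of the small subunit, and 60 were called in none. The 18 were 23.1% of the members (28.6% of the large and 13.8% of the small subunit genes), against 5913 of the 14455 genes tested (40.9%). They made 32 calls in 702 tests (4.56%), against 16287 calls in 130095 tests of all genes (12.5%). Calls went with level. Of 21 members with a mean value of at least 500, 11 were called, at a median SE of 0.15. Of 43 members between 100 and 500, 5 were called, at a median SE of 0.24. Of 14 members under 100, 2 were called, at a median SE of 0.47. The 95% interval of a member's log2 fold change reached a median of 0.47 to either side. It is not adjusted over genes. At this depth and number of libraries a call in a typical member thus mostly needed a change larger than this.

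Other parts of mitochondrial translation were examined beside the members. The 5 small subunit and large subunit proteins with other names (Dap3, Ptcd3, Aurkaip1, Chchd1 and Gadd45gip1) had no call in the knockout comparisons. Among them Aurkaip1 rose in CM against TNFa in KO (1.31 ± 0.41, limma adjusted p = 0.031). This was 1 of 5 (20%), where 8.38% of all genes rose. Of 26 assembly and ribosomal RNA modification factors none passed in the knockout comparisons. In TGFb against TNFa in KO, 5 of the 26 (19.2%) fell and none rose, where 10.1% of all genes fell and 22.4% were called. Among the 5 were the GTPase Gtpbp10 (-0.72 ± 0.14), the RNA-binding Fastkd2 (-0.58 ± 0.13) and Rcc1l (-0.80 ± 0.22). The count was 2 without TNFa KO library 3 and 3 without TGFb KO library 3. Gtpbp10 and Fastkd2 kept their calls without any single library. Of 15 translation factors, 1 (6.67%) rose in KO with CM, where 5.62% of all genes rose. This was Taco1, a translational activator of cytochrome oxidase subunit 1 (0.82 ± 0.22, adjusted p = 0.015). Gfm2, which acts in ribosome recycling, and Mtrf1l, a release factor, rose in CM against TGFb in WT (0.55 ± 0.16 and 1.21 ± 0.38), 2 of 15 (13.3%) against 5.76% of all genes.

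Among 20 aminoacyl-tRNA synthetases and amidotransferase subunits, 1 (5%) rose in KO with TNFa, where 4.19% of all genes rose. This was the methionyl-tRNA synthetase Mars2 (0.55 ± 0.13). Of 20 genes of mitochondrial DNA and RNA maintenance, 3 (15.0%) rose in KO with CM, where 5.62% of all genes rose. These were the RNase P subunits Hsd17b10 (0.66 ± 0.14) and Trmt10c (0.42 ± 0.11) and the elongation factor Tefm (0.72 ± 0.23). The count was 1, Hsd17b10, without CM KO library 3. Of 28 import genes, which serve all imported proteins, 2 rose and 1 fell in KO with CM (10.7%, against 9.39% of all genes called). Timm8a1 (0.83 ± 0.17) and Grpel1 (0.43 ± 0.12) rose and Pam16 fell by 2.65 on the log2 scale (limma adjusted p = 0.038). In CM against TNFa in WT, 6 of the 28 import genes (21.4%) fell and none rose, where 5.46% of all genes fell. Among the 6 were Timm8a1 (-1.02 ± 0.17), Timm23 (-0.60 ± 0.13) and Tomm5 (-0.83 ± 0.22). The count was 3 without TNFa WT library 1 and 2, Timm8a1 and Timm23, without CM WT library 2.

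The 13 protein-coding genes of mitochondrial DNA, the templates that these ribosomes translate, took 2.97% to 7.44% of the summed values, lowest in TNFa WT library 2. In each knockout comparison 2 of the 13 (15.4%) were higher, where 4.19%, 7.25% and 5.62% of all genes were higher with TNFa, TGFb and CM. These were mt-Cytb and mt-Atp6 with TNFa, mt-Co2 and mt-Cytb with TGFb, and mt-Co3 and mt-Nd3 with CM. Their median log2 fold changes in KO were 0.39, 0.36 and 0.11, beside -0.01, -0.05 and 0.23 for the members.

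Single libraries decided these values of the mitochondrially encoded genes. Their share was 5.73%, 2.97% and 5.81% in TNFa WT and 6.86%, 6.15% and 5.32% in TNFa KO, and WT library 3 lay above KO library 3. Without TNFa WT library 2 none of the 13 was called by limma and the median was 0.07. None was called without TNFa KO library 1 (median 0.28), and 1, mt-Cytb, without TNFa KO library 2 (median 0.39). Without TNFa WT library 3, 4 were called (median 0.58). With TGFb none was called without TGFb WT library 1 or 3 or TGFb KO library 1, where the medians were 0.33, 0.30 and 0.21, and 5 were called without TGFb KO library 3. With CM the count was 1, mt-Co3, without CM WT library 2 or CM KO library 1 or 2. The CM median was 0.05 without CM WT library 1, -0.10 without CM KO library 2 and 0.36 without CM KO library 3.

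Of 11 regulators of mitochondrial biogenesis, 1 (9.09%) rose in KO with TGFb, where 7.25% of all genes rose and no member was called. This was Ppargc1a, a coactivator of mitochondrial genes (1.10 ± 0.26, limma adjusted p = 0.0041). Yy1 fell (-0.41 ± 0.10) and Esrra rose (0.90 ± 0.27) in CM against TGFb in WT. These were 18.2% of the 11, where 11.8% of all genes were called.

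Cytosolic ribosomal proteins, which build the ribosomes outside mitochondria, gave most of their calls in the 3 comparisons that involve CM WT. Of 82, 22 were higher and 1 lower in KO with CM (28.0%, against 9.39% of all genes called). The median log2 fold change was 0.23, the value also found for the mitochondrial members. In CM against TNFa in WT, 18 fell and 1 rose (23.2%, against 12.3% of all genes called), at a median of -0.25. In CM against TGFb in WT 15 fell (18.3%, against 11.8% of all genes called), at a median of -0.16. With TNFa and TGFb, 1 and 0 were higher and 2 and 2 lower in KO (3.66% and 2.44%, against 7.89% and 12.2% of all genes called). In the interaction of the knockout with CM against TNFa, 8 of the 82 (9.76%) were called, against 0.63% of all genes. None of the 78 mitochondrial members was called, and their median SE was larger in the knockout comparison (0.23 against 0.16). The difference between the lists was not tested. These counts depended on CM WT libraries. In KO with CM, 12 rose without CM WT library 1 and 10 without library 2, at medians of 0.13 and 0.22. The median was 0.36 without library 3. In CM against TNFa in WT, 7 fell without CM WT library 2 and 32 without library 3. In CM against TGFb in WT, 9 fell without CM WT library 1 (median -0.08), 5 without library 2 and 25 without library 3 (median -0.28), and 6 fell without TGFb WT library 3.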

How the data were processed

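RNA of 18 hepatocyte libraries was measured in 6 groups of 3. The authors deposited 1 table of normalized signal per gene and library, whose name calls the values DESeq2-normalized. The submitters' processing notes list STAR 2.7.8a, DESeq2, Partek and the mm39 build and give neither order nor settings. Per the labels' protocols, RNA was extracted with an RNeasy kit, depleted of ribosomal RNA with QIAseq FastSelect and made into libraries with PrepX. Depth was estimated as the summed values over the value of 1 read.

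Signal was transformed as log2(value + 1), which understates changes of low genes. The 14455 genes that reached 10 or more in 3 or more libraries entered 1 limma-trend fit (limma 3.58.1, R 4.3.3) of 6 group means without a block, which left 12 residual degrees of freedom and gave 17 prior ones. P-values were adjusted over all genes tested (Benjamini-Hochberg). The script was tested on simulated data. All 78 members passed the filter. Symbols came from the table, transcript lengths from GENCODE M21 and promoters from RefSeq (GRCm38.p6). Table coordinates are mm39.

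Named genes were all called members up to 8 per direction and comparison, the 3 highest and 3 lowest per length, paralogs, stalk proteins, members whose name and place differ and up to 3 called genes of each other list. The members and lists were chosen with earlier results of these data known. Alternatives were other pseudocounts, filters, scalings, a replicate block, fits of only the groups compared and leaving out each library.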

Additional observations from a re-analysis of the deposited data

How the results depend on the processing

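Outside the fits with a library left out, 71 of 89 counts of called members stayed within 1.5 times the value reported. Of 81 medians 76, and of 30 differences between the subunits all 30, moved by less than the spread between libraries. That spread was the SD of single libraries within groups, 0.079 for medians and 0.092 for subunit differences (log2 scale). It exceeds the subunit differences of -0.06 with TNFa and -0.04 with TGFb in size. It also exceeds the medians of -0.01 and -0.05 in KO against WT with TNFa and TGFb. The same holds for the medians of -0.07 in CM against TGFb in WT and 0.03 in CM against TNFa in KO. The counts say little about these values. Part of the counts for medians and subunit differences was fixed in advance. Dropping the filter, the replicate block and the fit of only the groups compared leave the members' fold changes as they are. Median-of-ratios scaling and equal totals shift both subunits alike, so they could hardly move the subunit differences. No named call changed direction. In KO against WT with TGFb (0 called), 1 member was called with a mean value of at least 50, with quantile normalization and with equal totals, where the median was -0.15. In KO against WT with CM (3), 1 was called with equal totals and in a fit of only the groups compared. In TGFb against TNFa in WT (1), 2 were called with a pseudocount of 5, with a mean of at least 50, with median-of-ratios scaling and in a fit of only the groups compared, and 3 with equal totals, where the median was -0.26. In CM against TGFb in WT (10), 5 were called in a fit of only the groups compared. In TGFb against TNFa in KO (4), 15 were called with equal totals, at a median of -0.37. In CM against TNFa in KO (0), 1 was called with a mean of at least 50 and with quantile normalization, and 5 with equal totals, at a median of -0.12. In CM against TGFb in KO (4), 2 were called with no filter and with quantile normalization and 1 in a fit of only the groups compared, and the median was 0.27 with equal totals. With equal totals the median over all genes was -0.11 in TGFb against TNFa in WT, -0.17 in CM against TNFa in KO and 0.10 in CM against TGFb in KO. The cause of these shifts was not tested.

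With single libraries left out, called members ranged from 0 to 1 in KO against WT with TNFa, 0 to 1 with TGFb and 0 to 6 with CM, from 0 to 2 in TGFb against TNFa, 5 to 11 in CM against TNFa and 4 to 10 in CM against TGFb in WT, and from 2 to 5, 0 to 2 and 1 to 4 in KO. The interaction ranged from 0 to 1. The median in CM against TNFa in WT ranged from -0.25 to -0.084, and the large minus small subunit difference with CM from -0.11 to 0.023.

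Replicate numbers did not pair the libraries: correlations of same-numbered deviations lay between -0.07 and 0.05. With the replicate number as a block, 1, 0 and 3 members were called in the knockout comparisons, 1, 9 and 8 in the WT and 3, 0 and 3 in the KO treatment comparisons, and 0 in the interaction. The block ended the calls of Mrpl37 and Mrpl51 in CM against TGFb in WT, Mrps25 in TGFb against TNFa in KO and Mrps17 in CM against TGFb in KO, and no other.

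Leaving out single libraries for the other gene lists was chosen after seeing the data. It covered mitochondrially encoded genes in the knockout comparisons and cytosolic ribosomal proteins in the comparisons with CM WT. It also covered assembly factors in TGFb against TNFa in KO, import genes in CM against TNFa in WT and maintenance genes in KO with CM. Other calls of these lists were not checked in this way. Counts that moved by over 1.5 times are given beside each result.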
